A study of Rattus norvegicus with 18 samples.

Results

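The globin genes Hbz, Hbe1, Hbg1 and Hbb were followed in rat lung around birth, in RNA bound to large polysomes and in total RNA. All probe sets annotated to these 4 genes alone were taken. Each gene had 1 such probe set, so the set held 4 of the 31042 probe sets other than array controls and 4 of the 14217 genes with a probe set of their own. The animals were Wistar rats, and the labels name no transgene or drug in any group. Lungs came from fetuses on fetal day 19 (FD19, labelled as canalicular lung) and on fetal day 22 (FD22), and from newborns 5 h after birth (P1). Each of the 3 stages had 3 litters with 1 lysate per litter, and each of the 9 lysates gave 1 polysomal and 1 total array. The polysomal RNA came from gradient fractions with more than 7 ribosomes per mRNA, so mRNA on smaller polysomes was not in it. The 18 arrays therefore formed 6 groups of 3. Fetuses were delivered by Caesarean section and newborns by the vaginal route, so birth, route of delivery and age cannot be told apart between P1 and FD22. The tissue was whole lung, and whether its vessels were flushed of blood is not given in the sources used here.

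Haemoglobin is built from alpha-type and beta-type globin chains with haem. Mammals replace the embryonic chains with later ones as red cell formation moves from the yolk sac to the fetal liver and then to the bone marrow, and the yolk sac's primitive red cells are the main carriers of embryonic chains. In lung, globin mRNA is usually read as a sign of blood in the vessels, although alveolar epithelial cells of rat and mouse have also been described to make some. Hbz encodes the embryonic alpha-type chain zeta, and Hbe1 the embryonic beta-type chain epsilon. Hbg1 encodes a gamma chain, which is a fetal chain in humans, while the related mouse gene is active in the embryo. Hbb encodes the adult beta chain. In the gene order of the present rat assembly Hbe1, Hbe2, Hbg1 and Hbb follow each other from 5′ to 3′ on chromosome 1, with a pseudogene between Hbg1 and Hbb. Hbz lies first in the alpha-type cluster on chromosome 10, before Hba-a1.

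The proximal promoters are shown because Hbe1 and Hbg1 fell at both later stages against FD19, while Hbb did not pass the test. Hbz is shown as the embryonic alpha-type gene, and its lower later signals were in part set by the filter. RefSeq sequences were matched by symbol for 3 of the 4 genes, Hbz, Hbe1 and Hbb, and none was matched for Hbg1. They are the 150 bases that end just before the start site, read 5′ to 3′ from the minus strand of build GRCr8. They lie at chr10:15849758-15849907 for Hbz, chr1:167696281-167696430 for Hbe1 and chr1:167663722-167663871 for Hbb. Capitals mark matches on either strand to the letters CACCC, to CCAAT, to AGATAA or TGATAA (the GATA letters) and to ATAAA.
Hbz: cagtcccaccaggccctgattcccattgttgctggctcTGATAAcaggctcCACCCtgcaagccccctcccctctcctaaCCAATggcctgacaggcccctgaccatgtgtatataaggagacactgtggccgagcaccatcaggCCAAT
Hbe1: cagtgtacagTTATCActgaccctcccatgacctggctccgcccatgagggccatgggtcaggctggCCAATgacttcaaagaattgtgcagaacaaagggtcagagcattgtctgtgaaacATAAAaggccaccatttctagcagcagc
Hbb: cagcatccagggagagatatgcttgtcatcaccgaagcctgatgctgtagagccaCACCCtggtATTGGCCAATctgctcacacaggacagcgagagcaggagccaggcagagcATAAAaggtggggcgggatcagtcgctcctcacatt

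These letters are the cores of elements known from globin promoters of mouse and human. CACCC is read by Klf1-type factors, CCAAT by NF-Y and the GATA letters by Gata1, and ATAAA is part of a TATA-type element. CACCC began 99 bases upstream of the start site in Hbz and 95 bases upstream in Hbb. CCAAT began 70 bases upstream in Hbz, 83 in Hbe1 and 81 in Hbb. Hbz had another CCAAT 5 bases upstream, and in Hbb a match on the opposite strand began 86 bases upstream and adjoined the other. TGATAA began 112 bases upstream in Hbz and, on the opposite strand, 140 bases upstream in Hbe1. ATAAA began 28 bases upstream in Hbe1 and 36 in Hbb. The Hbz bases shown had no match to ATAAA, although they hold the unmarked TATA-like letters tatataa. Over all 33469 promoters of the table, the same 150 bases held CACCC in 35.2%, CCAAT in 23.5%, AGATAA or TGATAA in 9.98% and ATAAA in 25.7%. All of these are letter matches, and no binding was measured.

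The authors had scaled all arrays alike, with 2% trimmed means of 149.6 to 149.7 and array medians of 51.6 to 73.5, and the small number of arrays limits the precision. Lung epithelial markers (5 genes, Sftpc among them) had a summed signal of at least 9146 on all 18 arrays. Not all 5 were bright, since in FD19 total RNA Sftpc averaged 5656 and Ager 113. Of 13 listed markers of red cells and their precursors, 8 were measured apart from the globin genes, and Rhag stayed below the filter on low signals. Their summed total RNA signal was 2917 to 4669 at FD19, 2893 to 3263 at FD22 and 3191 to 4441 at P1, ranges that overlap. In polysomal RNA the sum was 1480 to 2379 at FD19, 875 to 1339 at FD22 and 957 to 1272 at P1, so FD19 lay above both later stages. Single markers did not all follow the total RNA sum. Alas2, the brightest of them, averaged 1609 at FD19, 2028 at FD22 and 2525 at P1 in total RNA. While 7.82% of all probe sets fell between FD22 and FD19, so did 2 of the 7 markers tested. These were Slc4a1, with 249 in FD22 lungs and 558 in FD19 lungs (log2 change -1.08, limma adjusted p = 0.013), and Ahsp, with 530 in FD22 lungs and 1067 in FD19 lungs (-0.98, adjusted p = 0.0214). On polysomes 5 of the 7 fell in that comparison, against 7.7% of all probe sets. Among these 5, Klf1 and Epb42 had polysomal means below the filter at both stages, so the size of their changes is uncertain. Both passed the filter mainly through total arrays. The lysate numbered 2 at FD22 stood apart through liver transcripts. The 5 liver markers, among them Alb (albumin) and Afp (alpha-fetoprotein), summed to 7450 on its polysomal and 8106 on its total array, against 89.0 to 247.8 on the other polysomal and 154.5 to 302.3 on the other total arrays. Alb gave most of these 2 high sums, with 4892 in polysomal and 5662 in total RNA. Not all 5 were raised, since Fgb reached at most 23.8 in polysomal and 46.1 in total RNA at FD22. Fetal liver forms red cells, so results at FD22 are also given without this lysate. Its red cell sum was the highest of the 3 at FD22 in both RNAs, with 1339 in polysomal and 3263 in total RNA.

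Hbz had signals of 98.3, 125.4 and 116.4 in total RNA at FD19, of 3.1, 2.3 and 10.9 at FD22 and of 4.5, 2.1 and 4.7 at P1. In polysomal RNA it had 29.2, 35.2 and 29.1 at FD19, 2.1, 1.4 and 2.6 at FD22 and 3.3, 3.7 and 2.2 at P1. Every FD19 array lay above every later array of the same RNA, and the later signals were among the dimmest of their arrays, between percentiles 1.91 and 12.6. Hbz passed the filter (a signal above 40.8 on at least 3 arrays) only through the 3 FD19 total arrays, so its later total RNA signals and its polysomal signals had to be lower than those. Hbz is therefore described by its signals alone, with no test, and the counts of genes that passed a test are over Hbe1, Hbg1 and Hbb, which were above the filter on all 18 arrays. The later values have no order among themselves that could be read as expression.

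Hbe1 had 2673.5, 2839.1 and 3238 in total RNA at FD19, 325.5, 682 and 753 at FD22 and 170.5, 139.6 and 376.5 at P1. In polysomal RNA it had 729.8, 782 and 686.9 at FD19, 107.7, 181.4 and 204.2 at FD22 and 68.4, 75.7 and 142.6 at P1. FD19 stood clear of both later stages in each RNA, while the P1 and FD22 ranges overlapped. Hbe1 was above the filter on 18 of 18 arrays, so it was still measured after birth.

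Hbg1 had 783.9, 626.5 and 513.8 in total RNA at FD19, 170.6, 235.1 and 354.6 at FD22 and 221, 199.8 and 396.1 at P1. In polysomal RNA it had 298.8, 255.1 and 160.8 at FD19, 41.1, 56.9 and 85.4 at FD22 and 74.4, 44.7 and 54.5 at P1. Again every FD19 array was above every later array of its RNA, and FD22 and P1 overlapped.

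Hbb had 6934, 7333.7 and 7831.6 in total RNA at FD19, 5674.7, 6684.9 and 10030.5 at FD22 and 5387.1, 7617.7 and 7809.2 at P1. In polysomal RNA it had 4821.6, 4745.6 and 5453.6 at FD19, 4244.1, 5850.5 and 5556.1 at FD22 and 4653.4, 7944.1 and 6369.3 at P1. The 3 stages overlapped in both RNAs, and the highest of the 18 signals was 2.36 times the lowest. The same ratio was 47.3 for Hbe1 and 19.1 for Hbg1. The Hbb probe set ranked among the 6 brightest on every array, and whether its signal was near saturation was not tested. It is of a type whose probes can also match related transcripts, so other adult beta-type genes may contribute to its signal.

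**Figure D1:**
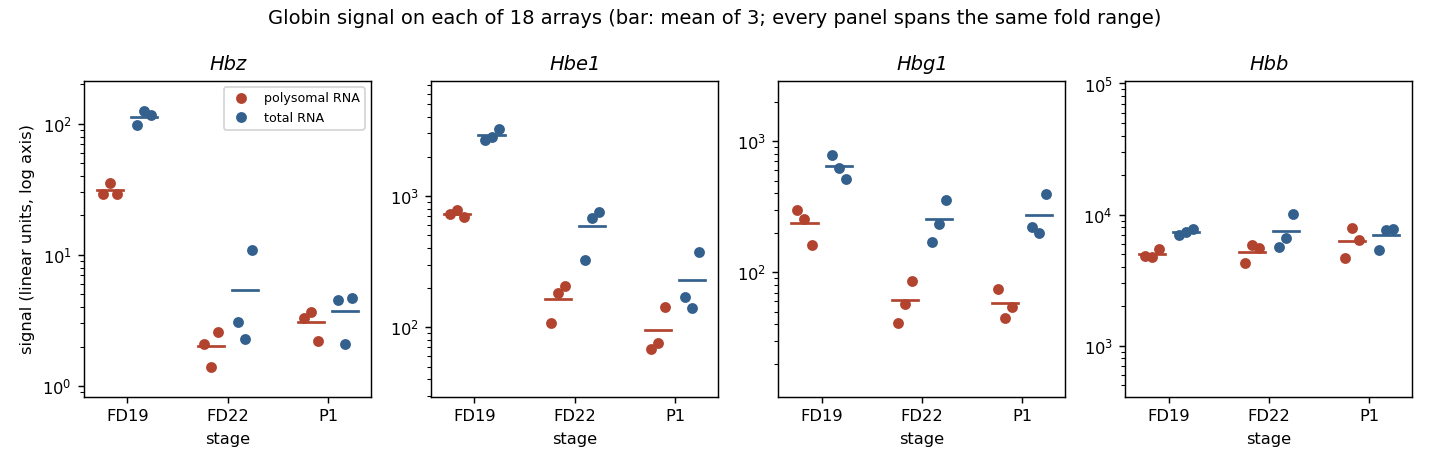
Signal of each globin gene (y axis, linear array units on a log axis that spans the same fold range in every panel) by stage (x axis), with polysomal arrays in red to the left of total arrays in blue, 3 points a group and a bar at their mean. Hbz, Hbe1 and Hbg1 are highest at FD19 in both RNAs, and Hbb lies between 4244.1 and 10030.5 throughout.

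The first comparison asked which globin genes differed between late and earlier fetal lung. Between FD22 and FD19, total RNA of 2 of the 3 genes fell, against 7.82% of all 21675 probe sets tested that fell. Hbe1 averaged 587 ± 229 in FD22 lungs and 2917 ± 290.2 in FD19 lungs (SD, n = 3 each), a log2 change of -2.39 ± 0.34 (SE, limma adjusted p = 8.6e-05). Hbg1 averaged 253 ± 93.4 in FD22 lungs and 641 ± 136 in FD19 lungs, a change of -1.36 ± 0.31 (adjusted p = 0.00474). Hbz averaged 5.43 ± 4.75 in FD22 lungs and 113 ± 13.8 in FD19 lungs. The FD22 signals of Hbz, the highest of them 10.9, were near the floor, so no fold is given. Among all probe sets ranked from the most negative change, Hbe1 was number 11 and Hbg1 number 214. Of the 7 red cell markers tested, 2 fell in the same comparison, Slc4a1 (-1.08) and Ahsp (-0.98), and 0 rose. Epb42 (-0.82), Klf1 (-0.15), Gata1 (-0.13), Epor (0.22) and Alas2 (0.36) did not pass. The part of red cell number in the globin changes was not tested. In bulk tissue, fewer cells that carry an mRNA and less of it per cell cannot be told apart.

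Hbb averaged 7463 ± 2280 in FD22 lungs and 7366 ± 449.7 in FD19 lungs, with a log2 change of -0.02 ± 0.20 (95% interval -0.46 to 0.41, adjusted p = 0.961). Of all probe sets, 46.5% had a lower change than Hbb. Without the FD22 lysate that carried liver transcripts, the log2 changes were -2.54 for Hbe1 and -1.34 for Hbg1, both past the test, and 0.04 for Hbb. With lysates numbered 2 and 3 only, the Hbg1 change was -0.96 (adjusted p = 0.075, within 0.00221 to 0.075 over all alternatives).

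In polysomal RNA 2 of the 3 genes, Hbe1 and Hbg1, fell between FD22 and FD19, against 7.7% of all probe sets. Hbe1 changed by -2.17 ± 0.34 (adjusted p = 0.000246) and Hbg1 by -1.88 ± 0.31 (adjusted p = 0.000344) on the log2 scale. Hbe1 averaged 164 ± 50.5 in FD22 lungs and 733 ± 47.6 in FD19 lungs, and Hbg1 averaged 61.1 ± 22.4 in FD22 lungs and 238 ± 70.5 in FD19 lungs. Hbb had a log2 change of 0.05 ± 0.20 (adjusted p = 0.919). The summed red cell markers were also lower on polysomes at FD22, 875 to 1339 against 1480 to 2379 at FD19, and their part in these changes was not tested. Without the liver-carrying lysate the changes were -2.26 for Hbe1 and -1.86 for Hbg1, both past the test, and -0.04 for Hbb.

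The comparison of P1 with FD22 covers the few hours around birth. In total RNA, 1 of the 3 genes fell, against 1.76% of all probe sets. This was Hbe1, with 229 ± 129 in P1 lungs and 587 ± 229 in FD22 lungs, a log2 change of -1.38 ± 0.34 (adjusted p = 0.0273). The groups overlapped, since the highest P1 array (376.5) was above the lowest FD22 array (325.5). The call was lost without the FD22 lysate that carried liver transcripts (-1.23, adjusted p = 0.118), without the FD22 lysate numbered 3 (-1.16, adjusted p = 0.113) and without P1 lysates numbered 1 (-1.24, adjusted p = 0.113) or 2 (-1.10, adjusted p = 0.135). Over all alternatives its adjusted p ran from 0.00282 to 0.135. Hbg1 (0.10 ± 0.31) and Hbb (-0.08 ± 0.20) did not pass.

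In polysomal RNA, 0 of the 3 genes passed between P1 and FD22 with limma, against 4.55% of all probe sets that fell. At an unadjusted p under 0.05 the count was 1, Hbe1, which had 95.6 ± 40.9 in P1 lungs and 164 ± 50.5 in FD22 lungs (log2 change -0.77 ± 0.34, adjusted p = 0.191). Without the P1 lysate numbered 3, which had the highest P1 signal, its change was -1.08 with an adjusted p of 0.039 (range over the alternatives 0.039 to 0.442). Hbb had a log2 change of 0.26 ± 0.20 (95% interval -0.18 to 0.69).

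Over the whole interval, P1 against FD19, 2 of the 3 genes fell in total RNA, against 13.7% of all probe sets. Hbe1, with a log2 change of -3.77 ± 0.34 (adjusted p = 2.3e-07), had the most negative change of all 21675 probe sets. The Hbe1 means of 229 in P1 lungs and 2917 in FD19 lungs differ 12.7-fold. Hbg1 changed by -1.26 ± 0.31 (adjusted p = 0.00476), and Hbb by -0.10 ± 0.20 (adjusted p = 0.761). In polysomal RNA, 2 of the 3 fell, against 15.8% of all probe sets, with -2.94 ± 0.34 for Hbe1 (adjusted p = 3.63e-06) and -1.93 ± 0.31 for Hbg1 (adjusted p = 0.000113). Hbb had a polysomal log2 change of 0.31 ± 0.20 (adjusted p = 0.283). The 3 stage comparisons of an RNA share their arrays and are not independent of each other.

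**Figure D2:**
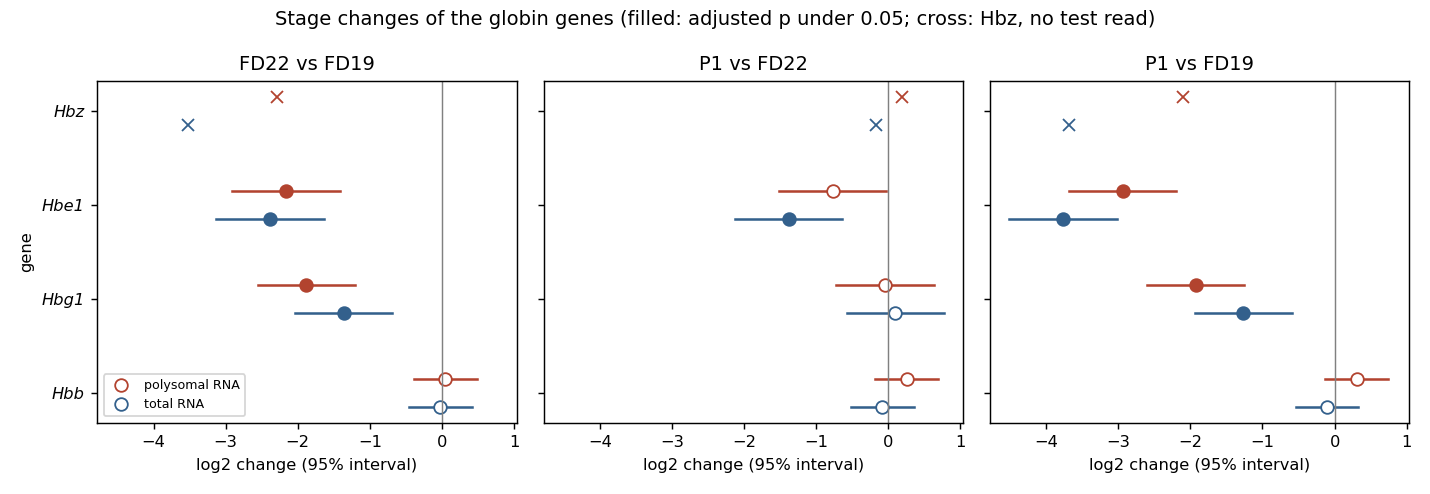
Log2 change of each globin gene (x axis, with 95% intervals at 12 residual degrees of freedom) for FD22 against FD19, P1 against FD22 and P1 against FD19, with polysomal RNA in red and total RNA in blue, filled points where the adjusted p was under 0.05, and crosses with no interval for Hbz, which was not read as a test. Hbe1 and Hbg1 lie left of 0 against FD19, Hbe1 alone is filled for P1 against FD22 (-1.38 in total RNA), and the Hbb intervals include 0 in all 6 comparisons.

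The share of each mRNA on large polysomes was read from the polysomal over total ratio of the same lysate, which is relative because both kinds of array were scaled alike. At FD19 polysomal signal was lower than total signal for 2 of the 3 genes, against 10.9% of all probe sets. Hbe1 had a log2 difference of -1.98 ± 0.34 (adjusted p = 0.000573) and Hbg1 of -1.43 ± 0.31 (adjusted p = 0.00337). Hbb had -0.56 ± 0.20 (adjusted p = 0.0537), although its 3 polysomal and 3 total arrays did not overlap. With the lysate as a block, which pairs the arrays of 1 lysate, the Hbb difference passed (adjusted p = 0.0023).

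At FD22, 2 of the 3 genes were lower on polysomes than in total RNA, against 8.6% of all probe sets. They were Hbg1 (-1.95 ± 0.31, adjusted p = 0.000366) and Hbe1 (-1.76 ± 0.34, adjusted p = 0.00204). Without the liver-carrying lysate the values were -1.95 for Hbg1 and -1.70 for Hbe1, both past the test. Hbb had -0.49 ± 0.20 (adjusted p = 0.104), and with the lysate as a block this passed too (adjusted p = 0.0067). The adjusted p of Hbb over all alternatives ran from 0.00122 to 0.536 at FD19 and from 0.0067 to 0.581 at FD22. Under quantile normalization its difference was 0.07 at each stage. Hbb ranked among the 6 brightest on every array, so that setting gives it nearly the same value on each. A difference near 0 was therefore set in advance and cannot show a direction. The Hbb difference stays relative to how polysomal and total arrays were scaled to each other.

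At P1, 2 of the 3 genes were lower on polysomes, against 10.4% of all probe sets. Hbg1 had a log2 difference of -2.09 ± 0.31 (adjusted p = 0.000148) and Hbe1 of -1.15 ± 0.34 (adjusted p = 0.0248). The Hbe1 call was lost when any 1 of the 3 P1 lysates was left out, with adjusted p of 0.103, 0.0544 and 0.0501 without lysates 1, 2 and 3, and its range over all alternatives was 4.57e-05 to 0.103. Hbb had -0.15 ± 0.20, which did not pass.

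The polysomal signal of Hbe1 was 25.4 ± 3.59% of the total signal at FD19, 28.9 ± 3.61% at FD22 and 44.1 ± 8.86% at P1 (SD, n = 3 lysates each). For Hbb it was 68.0 ± 2.82%, 72.6 ± 16.2% and 90.8 ± 11.98% at the same stages. For Hbg1 it was 36.7 ± 4.87%, 24.1 ± 0.0666% and 23.3 ± 9.99%. The mean percentages of Hbe1 and Hbb were thus highest at P1, that of Hbg1 was highest at FD19, and Hbg1 was nearly identical in the 3 FD22 lysates. For Hbz it was 27.6 ± 2.39% at FD19, with polysomal signals below the filter, and at the later stages both signals were too dim for a ratio to be read.

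The change of this ratio between stages passed limma's test in none of the 3 genes. The counts were 0 of 3 for FD22 against FD19 (0.0% of all probe sets), 0 of 3 for P1 against FD22 (0.0138%) and 0 of 3 for P1 against FD19 (0.115%). At an unadjusted p under 0.05 the count was also 0 in each comparison. The ratio change between P1 and FD19 was 0.83 for Hbe1 (95% interval -0.23 to 1.88), 0.41 for Hbb (-0.20 to 1.02) and -0.66 for Hbg1 (-1.61 to 0.29). These intervals, taken at 12 residual degrees of freedom, are wide. Changes of 2-fold in the ratio lay within the Hbe1 and Hbg1 intervals and at the edge of the Hbb interval.

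Set against Hbb within the same lysate, the polysomal over total ratio of Hbe1 was lower in 9 of 9 lysates, by a mean log2 difference of -1.23 ± 0.292 (SD, n = 9). That of Hbg1 was lower in 9 of 9 lysates as well, by -1.43 ± 0.584. An exact two-sided paired permutation test, chosen after the data were seen, gave p = 0.00391 for each, the smallest it can give, and the same after adjustment over the 2 tests. The test was also run for Hbz and is not given, since 6 of its 9 lysates had no ratio that could be read. The difference was between -1.71 and -0.90 for Hbe1 and between -2.45 and -0.65 for Hbg1 over the lysates. Without the liver-carrying lysate the means were -1.18 for Hbe1 and -1.39 for Hbg1 (adjusted exact p = 0.00781 each). Hbb was itself at the high end for a bright probe set. Of the 100 probe sets brightest in total RNA, 83 had a lower ratio than Hbb at FD19, 80 at FD22 and 81 at P1, with medians of -0.98, -1.14 and -0.65.

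**Figure D3:**
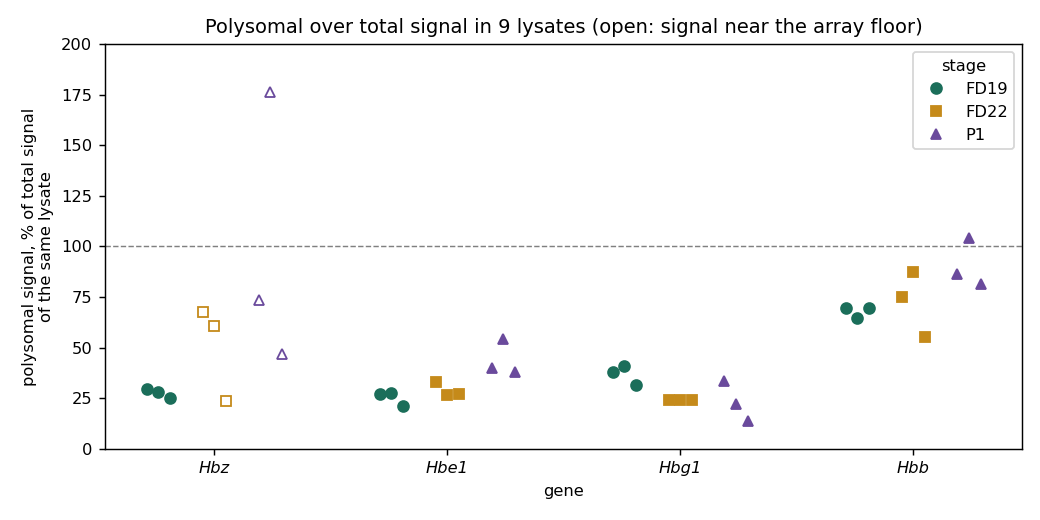
Polysomal signal as a percentage of the total signal of the same lysate (y axis) for the 4 globin genes (x axis) in 9 lysates, 3 a stage, with the dashed line at 100% and open symbols for Hbz at FD22 and P1, where signals were near the floor. Hbb runs from 55.4% to 104.3%, while Hbe1 runs from 21.2% to 54.2% and Hbg1 from 13.8% to 40.7%.

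Of the other globin chains, neither measured one passed the test between stages, while their chaperone fell. Of 16 listed genes of this group 3 had a kept probe set of their own, namely Hba-a3 (an adult alpha-type gene), Hbe2 (an epsilon-type gene beside Hbe1) and Ahsp (the chaperone of free alpha chains). Hba-a3 had a total RNA log2 change of 0.21 ± 0.23 between P1 and FD19 (adjusted p = 0.572). Hbe2 was dim, with 78.0 in P1 lungs and 45.7 in FD19 lungs on average and a change of 0.71 ± 0.32 that did not pass (adjusted p = 0.119). Ahsp fell in total RNA between P1 and FD19, by 0.88 ± 0.28 on the log2 scale (adjusted p = 0.0249), with 591 in P1 lungs and 1067 in FD19 lungs. A further 6 probe sets were each annotated to several globin genes and are therefore given no name. Of these, 5 were bright, and no stage comparison passed for any of the 6, with log2 changes from -0.22 to 0.40.

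On polysomes Hba-a3 lay well below total RNA at each stage, by -1.51 at FD19, -1.84 at FD22 and -1.58 at P1 (SE 0.23 each, adjusted p of at most 0.000223). Its polysomal signal was 35.4 ± 4.91% of total at FD19, 29.8 ± 13.6% at FD22 and 35.2 ± 14.2% at P1. Ahsp was lower on polysomes by -1.79, -1.89 and -1.86 at the same stages. Hbe2 was lower on polysomes at FD22 (-1.20, adjusted p = 0.0175) and P1 (-1.04, adjusted p = 0.031), from polysomal means of 20.7 and 35.6, which are below the filter. It passed the filter mainly through total arrays (8 of 10), so this difference was in part set by the filter. A low polysomal ratio was thus found in the adult alpha-type gene Hba-a3 too, but not alike in all bright globin probe sets. The bright ones annotated to several globin genes lay nearer to Hbb than to Hba-a3. Their log2 differences ran from -0.61 to -0.45 at FD19, from -0.80 to -0.47 at FD22 and from -0.45 to -0.01 at P1. The dim one had -0.90, -1.37 and -1.52 at these stages.

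Among 22 listed regulators of globin genes 20 were measured. Between FD22 and FD19, 3 fell and 0 rose in total RNA by limma, against 7.82% and 8.42% of all probe sets, and 1 was higher at an unadjusted p under 0.05. Bcl11a, a repressor of embryonic and fetal beta-type globin genes in mouse and human, fell the most, with 45.4 in FD22 lungs and 234 in FD19 lungs and a log2 change of -2.25 ± 0.20 (adjusted p = 6e-07). The RNA-binding proteins Igf2bp1 (-1.02) and Igf2bp3 (-0.61), which are mostly made in fetal tissues, fell as well. Between P1 and FD19, 5 fell and 2 rose in total RNA, against 13.7% and 12.4% of all probe sets. Bcl11a (-2.67 ± 0.20, adjusted p = 2.64e-08), Igf2bp1 (-1.22), Sox6 (-0.84, a partner of Bcl11a in mouse) and Igf2bp3 (-0.83) were lower at P1. The red cell factor Tal1 (0.69) and Klf3 (0.66, a repressor related to Klf1) were higher. Bcl11a was above the filter on 10 arrays, 0 of them at P1, so the size of its change against P1 depends on dim signals. The cells of the lung in which Bcl11a was expressed were not identified.

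In polysomal RNA between P1 and FD19, 7 of the 20 regulators fell and 2 rose, against 15.8% and 13.1% of all probe sets. The largest changes were those of Bcl11a (-2.39), Klf1 (-1.49, the activator of adult beta globin), Sox6 (-1.02), Igf2bp1 (-1.02), Igf2bp3 (-0.89) and Lmo2 (-0.85, a bridging protein of the Gata1 complex). The polysomal Klf1 means of 10.1 in P1 lungs and 39.8 in FD19 lungs were both below the filter, so its size is uncertain, and in total RNA Klf1 did not pass between stages. Klf1 and Gata1, the main red cell factor, were each above the filter on 10 arrays, 9 of them total arrays, so their polysomal signals had to be the lower ones. At P1 Klf1 averaged 10.1 in polysomal and 79.1 in total RNA, and Gata1 averaged 32.0 in polysomal and 75.6 in total RNA.

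Of 18 listed genes of haem synthesis and red cell iron 15 were measured. In total RNA between P1 and FD19, 3 rose and 3 fell, against 12.4% and 13.7% of all probe sets. Alas1, the enzyme of the first step of haem synthesis in most tissues, rose (1.38), and so did its red cell form Alas2 (0.66) and Hebp1 (0.60), a haem-binding protein. Alad (-0.99), Cpox (-0.94) and Fech (-0.60), enzymes of later steps, fell. Alas2 ran opposite ways in the 2 RNAs. Its total signal averaged 2525 in P1 lungs and 1609 in FD19 lungs, while its polysomal signal averaged 683 in P1 lungs and 1145 in FD19 lungs (log2 change -0.73, adjusted p = 0.00499). Its ratio change of -1.40 ± 0.26 between P1 and FD19 passed (adjusted p = 0.0459). Over all probe sets only 25 ratio changes passed in this comparison, and at most 1 did when any 1 of the FD19 or P1 lysates was left out.

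Of 24 listed erythroid markers 17 were measured. In total RNA between P1 and FD19, 2 of the 17 fell and 2 rose, against 13.7% and 12.4% of all probe sets, shares near the background. Slc4a1, the anion exchanger of the red cell membrane, fell (-0.81). Sptb, a chain of its spectrin skeleton, also passed, but it averaged 11.2 in P1 lungs and 37.1 in FD19 lungs, both below the filter, which it met only through 3 FD19 arrays. Bpgm (0.62), which makes the phosphate that lowers the oxygen affinity of haemoglobin, and Mkrn1 (0.43) rose. On polysomes at P1, 7 of the 17 were lower than in total RNA and 0 were higher by limma (0 also at an unadjusted p under 0.05), against 10.4% and 8.12% of all probe sets, among them Slc4a1 (-1.15). Epb42 and Kel, both of the red cell membrane, are among the 7, but their polysomal means at P1, 20.9 and 20.4, were below the filter. Both passed the filter mainly through total arrays, so their differences were in part set by the filter. The count of 7 and the median below include them. The median over the 17 markers was -0.59, beside -0.09 over all probe sets. Of 3 listed globins of other tissues 2 were measured, cytoglobin (Cygb) and neuroglobin (Ngb), and neither passed in any comparison of stages or RNAs.

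**Figure D4:**
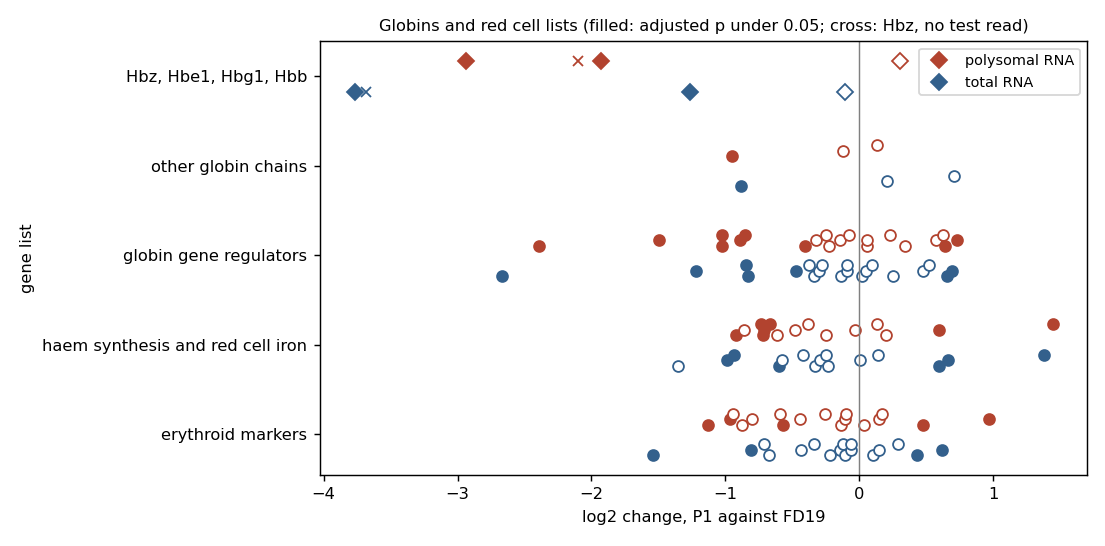
Log2 change of P1 against FD19 (x axis) for the 4 globin genes (diamonds, and crosses for Hbz, which was not read as a test) and for the measured members of 4 lists (circles), with polysomal RNA in red above total RNA in blue and filled symbols where the adjusted p was under 0.05. The lowest total RNA value is that of Hbe1 (-3.77), and among the lists that of Bcl11a (-2.67), while most erythroid markers lie between -1 and 1.

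The genes most like each globin gene over the 18 arrays were taken from 11590 genes by Pearson's r of the log2 signals. For Hbz they were Nop58 (0.952, a ribosome assembly protein), Bcl11a (0.933), Rbmx (0.932) and G3bp1 (0.930), although only 3 of the 18 Hbz signals were above the filter. For Hbe1 they were Cse1l (0.961), Nup160 (0.951), Pole (0.949) and Rfc4 (0.947), of which Pole and Rfc4 act in DNA replication. For Hbg1 they were Pabpc4 (0.937), Dsp (0.930), Pcbp2 (0.921) and Cep57l1 (0.919). In total RNA all 12 of these genes had a higher mean at FD19 than at P1. They were picked on these same arrays for likeness to genes brightest at FD19, so this was built into the choice. For Hbb they were Sftpc (0.940, the surfactant protein C of alveolar cells), Gnas (0.935), Eef1a1 (0.924) and Actg1 (0.917). Among the members, r was 0.887 between Hbz and Hbe1, 0.867 between Hbe1 and Hbg1 and 0.743 between Hbz and Hbg1, while Hbb had r of 0.176 with Hbz, 0.328 with Hbe1 and 0.421 with Hbg1. The arrays share their lysates in pairs and one scaling, so these values are a description.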

How the data were processed

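The authors deposited linear intensity values for 31099 probe sets of an Affymetrix rat array, made with GCOS 1.4 per the submitters' processing notes. The signal algorithm and any background step are not given in the sources used here. The 57 controls were left out, and probe sets above 40.8 (40th percentile of all values) on at least 3 of 18 arrays were kept, which left 21675. On log2(signal + 5.5), the constant being the 10th percentile, 6 group means were estimated by limma 3.58.1 (R 4.3.3) with moderated variances that follow the mean and 12 residual degrees of freedom. The p-values were adjusted by Benjamini-Hochberg over all probe sets kept, with a threshold of 0.05, and the script was tested on simulated data. Genes were named through the platform annotation (1 symbol for 20826 probe sets, several for 436, none for 9780), and list genes by their kept probe set of highest mean. All members were named, with the 4 most correlated genes of each and up to 6 called genes of a list in a comparison. The members and lists were chosen with earlier results of these data known. Arrays of 1 lysate, paired by the design, deviated together in 9 of 9 pairs (r from 0.186 to 0.488). Figures and tables used Python 3.11.15, numpy 2.4.6, pandas 2.3.3, scipy 1.17.1 and matplotlib 3.10.9. The alternatives were other constants, filters and normalizations, no trend, fewer groups, a block and fewer lysates. The block was the lysate for the polysomal over total ratio and its changes, and the replicate number for comparisons of stages.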

Additional observations from a re-analysis of the deposited data

How the results depend on the processing

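Of 699 values of the globin genes under alternatives, 646 kept their direction and their side of the threshold. Arrays give no depth, and Hbz at FD22 and P1 lay near the floor, so its fitted changes move with the constant added and are not read as tests. It did not pass the filter without an FD19 lysate or with lysates 2 and 3 only. The values and counts in this section include Hbz. The cause of the shifts given here was not tested.

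The count of globin genes called in total RNA at P1 against FD22 was 0 without the variance trend and with only the groups compared, and 0 to 1 when 1 lysate was left out. For polysomal against total RNA at P1 it was 1 with only the groups compared, with lysates 2 and 3 only and when any P1 lysate was left out. It was 1 for total RNA at FD22 against FD19 with lysates 2 and 3 only and 1 for the ratio change at P1 against FD19 with the 30th percentile as constant (Hbz, from signals near the floor). It was 0 to 1 for polysomal RNA at P1 against FD22 when 1 lysate was left out.

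Directions turned 31 times, and none of these values had passed the test. After quantile normalization Hbb was at 0.0089 in total RNA at FD22 against FD19, 0.0014 at P1 against FD19, 0.0693, 0.0663 and 0.0738 for polysomal against total RNA at FD19, FD22 and P1, and -0.0030 for the ratio change at FD22 against FD19. Hbg1 was then at 0.0028 in polysomal RNA at P1 against FD22 and Hbz at 0.0558 for polysomal against total RNA at P1. After median centring Hbb was at 0.0173 in total RNA at P1 against FD22 and 0.0506 for polysomal against total RNA at P1, where Hbz was at 0.0939, and Hbg1 was at 0.0220 in polysomal RNA at P1 against FD22. With lysates 2 and 3 only, Hbb was at 0.112 in total RNA at FD22 against FD19 and 0.0253 at P1 against FD19, and Hbg1 at -0.0358 in total RNA at P1 against FD22. Leaving out 1 lysate gave Hbb -0.256 to 0.154 in total RNA at FD22 against FD19, -0.259 to 0.152 at P1 against FD22 and -0.200 to 0.0680 at P1 against FD19. It gave Hbb -0.0413 to 0.190 in polysomal RNA at FD22 against FD19 and -0.0775 to 0.252 for that ratio change. It gave Hbg1 -0.202 to 0.366 in total and -0.276 to 0.206 in polysomal RNA at P1 against FD22, and -0.437 to 0.183 for that ratio change. It gave Hbz -0.371 to 0.166 in total RNA at P1 against FD22 and -0.295 to 0.0456 for polysomal against total RNA at P1.

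With the lysate as a block, Hbb passed for polysomal against total RNA at FD19 (-0.56) and FD22 (-0.49). Comparisons of stages were blocked by the replicate number instead, which different litters share across stages. No other call of the 4 genes changed with either block. Calls over all probe sets moved by over 1.5 times in these comparisons. They were 3520 (2335 to 4709 over the alternatives) in total RNA at FD22 against FD19 and 861 (352 to 1457) at P1 against FD22. In polysomal RNA they were 3451 (1994 to 4607) at FD22 against FD19 and 1807 (476 to 2731) at P1 against FD22. For polysomal against total RNA they were 4525 (1708 to 6787) at FD19, 3329 (1213 to 5653) at FD22 and 4004 (1871 to 6058) at P1. For the ratio changes they were 0 (0 to 4) at FD22 against FD19, 3 (0 to 20) at P1 against FD22 and 25 (0 to 226) at P1 against FD19.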
